A study of Mus musculus with 12 samples.

Results

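The expression of 10 mouse genes of DNA replication and the cell cycle was examined in hearts of mdx and control mice: Mcm2, Mcm3, Mcm4, Mcm6, Pcna, Cdk4, Ccnd1, Ccnd2, H2az1 and Cdkn1a. Every probe set annotated to 1 gene that is among these 10 was taken, which gave 29 of the 22690 probe sets on the Affymetrix array (10 of the 12394 genes that a probe set names alone). This rule uses no measured value. The 12 arrays of total RNA from cardiac muscle fall into 4 groups of 3, namely mdx hearts at 10.5 months, control hearts at 10.5 months, mdx hearts at 8 weeks and control hearts at 8 weeks. The series title calls the controls wild type. mdx mice carry a mutation in Dmd, the gene of dystrophin, in every cell and are a model of Duchenne muscular dystrophy. Strain, sex and the number of animals behind an array are not given in the sources used here, so p-values measure only the spread between these arrays, which may be technical.

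The level is the deposited signal of a probe set, rescaled so that the trimmed mean of each array was 500. Of the 29 probe sets, 21 averaged 100 or more in rescaled signal and entered the test (limma, Benjamini-Hochberg adjustment over all 14932 probe sets tested), and an adjusted p below 0.05 counts as called. The probe sets tested were 2 of 2 for Mcm2, 2 of 5 for Mcm3, 1 of 2 for Mcm4, 1 of 2 for Mcm6, 1 of 1 for Pcna, 3 of 3 for Cdk4, 3 of 3 for Ccnd1, 5 of 7 for Ccnd2, 2 of 2 for H2az1 and 1 of 2 for Cdkn1a. The 8 not tested, beside 3 of Mcm3 and 1 of Cdkn1a described with those genes, were 1436708_x_at of Mcm4, 1438852_x_at of Mcm6, and 1416123_at and 1416124_at of Ccnd2, with means of 94.7, 46.4, 53.2 and 97.0. In a fit with no filter none of the 8 was called in any comparison. Probe sets whose names end in _x_at or _s_at can bind transcripts other than the one they are annotated to, and signals of different probe sets are not comparable in level. A difference in these whole-tissue samples cannot tell fewer cells of a type apart from less RNA per cell.

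Dmd, the mutated gene (1417307_at), had signals of 264, 286 and 195 in mdx hearts and of 839, 839 and 796 in control hearts at 10.5 months (log2 fold change -1.63, adjusted p = 0.012, limma), and was lower on each mdx array than on each control array at 8 weeks as well (-1.42, adjusted p = 0.00596). Without the 4 arrays of wide signal range described next it was -1.48 at 10.5 months (adjusted p = 0.00842) and -1.76 at 8 weeks (adjusted p = 0.00618). A keyword in the labels names extraocular muscle, whereas titles and source name the heart. All 9 cardiac myocyte markers passed the filter, while of 9 extraocular and skeletal muscle markers 1 passed, Ckm, which heart also expresses. On 4 arrays the deposited signal ran over a wider range than on the rest, with a 99th percentile of 40769.9 or more against 32809.5 or less. These are replicates 1 and 2 of mdx at 8 weeks, replicate 2 of control at 8 weeks and replicate 3 of mdx at 10.5 months, and each called result is given with and without them. Leaving them out keeps 1 mdx array and 2 control arrays at 8 weeks, so the lone array is assumed to vary like the other groups.

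Before a cell copies its DNA, the origin recognition complex loads a ring of 6 MCM proteins onto each replication origin, and this ring later becomes the motor of the replicative helicase. Cyclin D1 and cyclin D2 activate the kinase Cdk4, which phosphorylates the retinoblastoma protein and so releases E2F transcription factors, whose targets include the Mcm genes and Pcna. The p53 target Cdkn1a (p21) inhibits cyclin-dependent kinases and binds Pcna, the sliding clamp of the DNA polymerases. Heart muscle cells largely leave the cell cycle in the first weeks after birth, whereas fibroblasts, endothelial cells and immune cells of the heart can still divide.

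The promoters of 4 genes with a called probe set are shown with their CCAAT and GC boxes marked. None of the 4 stretches before the start holds an E2F word of those searched. Each line holds the 250 bases before the transcription start in the RefSeq annotation of GRCm38.p6, 5′ to 3′ on the gene's strand. Capitals mark a CCAAT box (CCAAT, or ATTGG on the other strand) or a GC box (GGGCGG, or CCGCCC on the other strand).
Mcm3, chr1:20820313-20820562, minus strand: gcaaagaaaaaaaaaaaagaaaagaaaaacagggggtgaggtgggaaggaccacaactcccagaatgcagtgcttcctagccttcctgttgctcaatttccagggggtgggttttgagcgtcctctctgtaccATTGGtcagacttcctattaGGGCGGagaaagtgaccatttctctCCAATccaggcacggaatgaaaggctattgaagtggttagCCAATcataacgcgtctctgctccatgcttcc
Pcna, chr2:132253181-132253430, minus strand: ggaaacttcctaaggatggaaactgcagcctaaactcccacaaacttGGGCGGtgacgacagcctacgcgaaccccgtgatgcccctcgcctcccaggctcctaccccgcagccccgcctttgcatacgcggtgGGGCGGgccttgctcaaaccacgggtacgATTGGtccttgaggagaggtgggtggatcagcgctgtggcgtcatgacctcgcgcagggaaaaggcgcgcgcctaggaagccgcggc
Cdk4, chr10:127063285-127063534, plus strand: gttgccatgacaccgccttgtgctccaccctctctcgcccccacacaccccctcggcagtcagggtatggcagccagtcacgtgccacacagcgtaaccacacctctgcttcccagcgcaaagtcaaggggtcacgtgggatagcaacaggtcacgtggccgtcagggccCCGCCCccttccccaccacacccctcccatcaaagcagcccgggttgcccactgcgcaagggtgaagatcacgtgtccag
H2az1, chr3:137864237-137864486, plus strand: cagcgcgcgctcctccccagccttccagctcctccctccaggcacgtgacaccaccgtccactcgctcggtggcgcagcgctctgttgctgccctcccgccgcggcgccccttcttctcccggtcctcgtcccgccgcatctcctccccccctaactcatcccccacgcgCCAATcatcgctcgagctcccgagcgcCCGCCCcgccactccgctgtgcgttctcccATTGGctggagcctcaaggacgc
Mcm3 also holds a pair of E2F words between 20 and 46 bases after the start, printed with those words in capitals.
Mcm3, chr1:20820267-20820293, minus strand: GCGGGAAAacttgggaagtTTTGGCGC

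E2F words were TTTGGCGC, TTTCGCGC, TTTCCCGC and TTTGCCGC, searched on both strands together with the other motifs in windows of 300 bases, 250 before to 50 after the start. A window was found for 7 of the 10 genes (Mcm2, Mcm3, Mcm6, Pcna, Cdk4, H2az1 and Cdkn1a). The windows of Mcm3 and Mcm6 held an E2F word, which 2.26% of all 32851 windows hold. Mcm6 held 3, the nearest 47 bases before the start, some of which overlap. CCAAT boxes were in the windows of 5 genes (Mcm2, Mcm3, Mcm6, Pcna and H2az1) and in 37.4% of all windows. GC boxes were in those 5 and in that of Cdk4, against 35.7% of all windows. For Cdkn1a a second window, at another annotated start, held 2 GC boxes.

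At 8 weeks the mdx hearts had less signal than the control hearts for 1 of the 2 tested probe sets of the helicase subunit Mcm3, and more for 1 of the 5 tested probe sets of cyclin D2. No probe set of the 10 genes was called between mdx and control hearts at 10.5 months. Of all probe sets tested, 2.3% were called between mdx and control hearts at 8 weeks and 0.0469% at 10.5 months. Within mdx hearts, 1 probe set each of Mcm3, Pcna, Cdk4, Ccnd1 and H2az1 rose with age, by 0.65 to 1.60 on the log2(signal + 32) scale, and none fell. In control hearts none was called between the ages. Of all probe sets tested, 11.4% were called with age in mdx hearts and 0.147% in control hearts. The test of the difference between the ages in the effect of mdx called no probe set of the 10 genes. The calls of Pcna, Cdk4 and H2az1 with age depended on single arrays. The plot of signals by array shows 1 probe set of each gene.

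**Figure D1:**
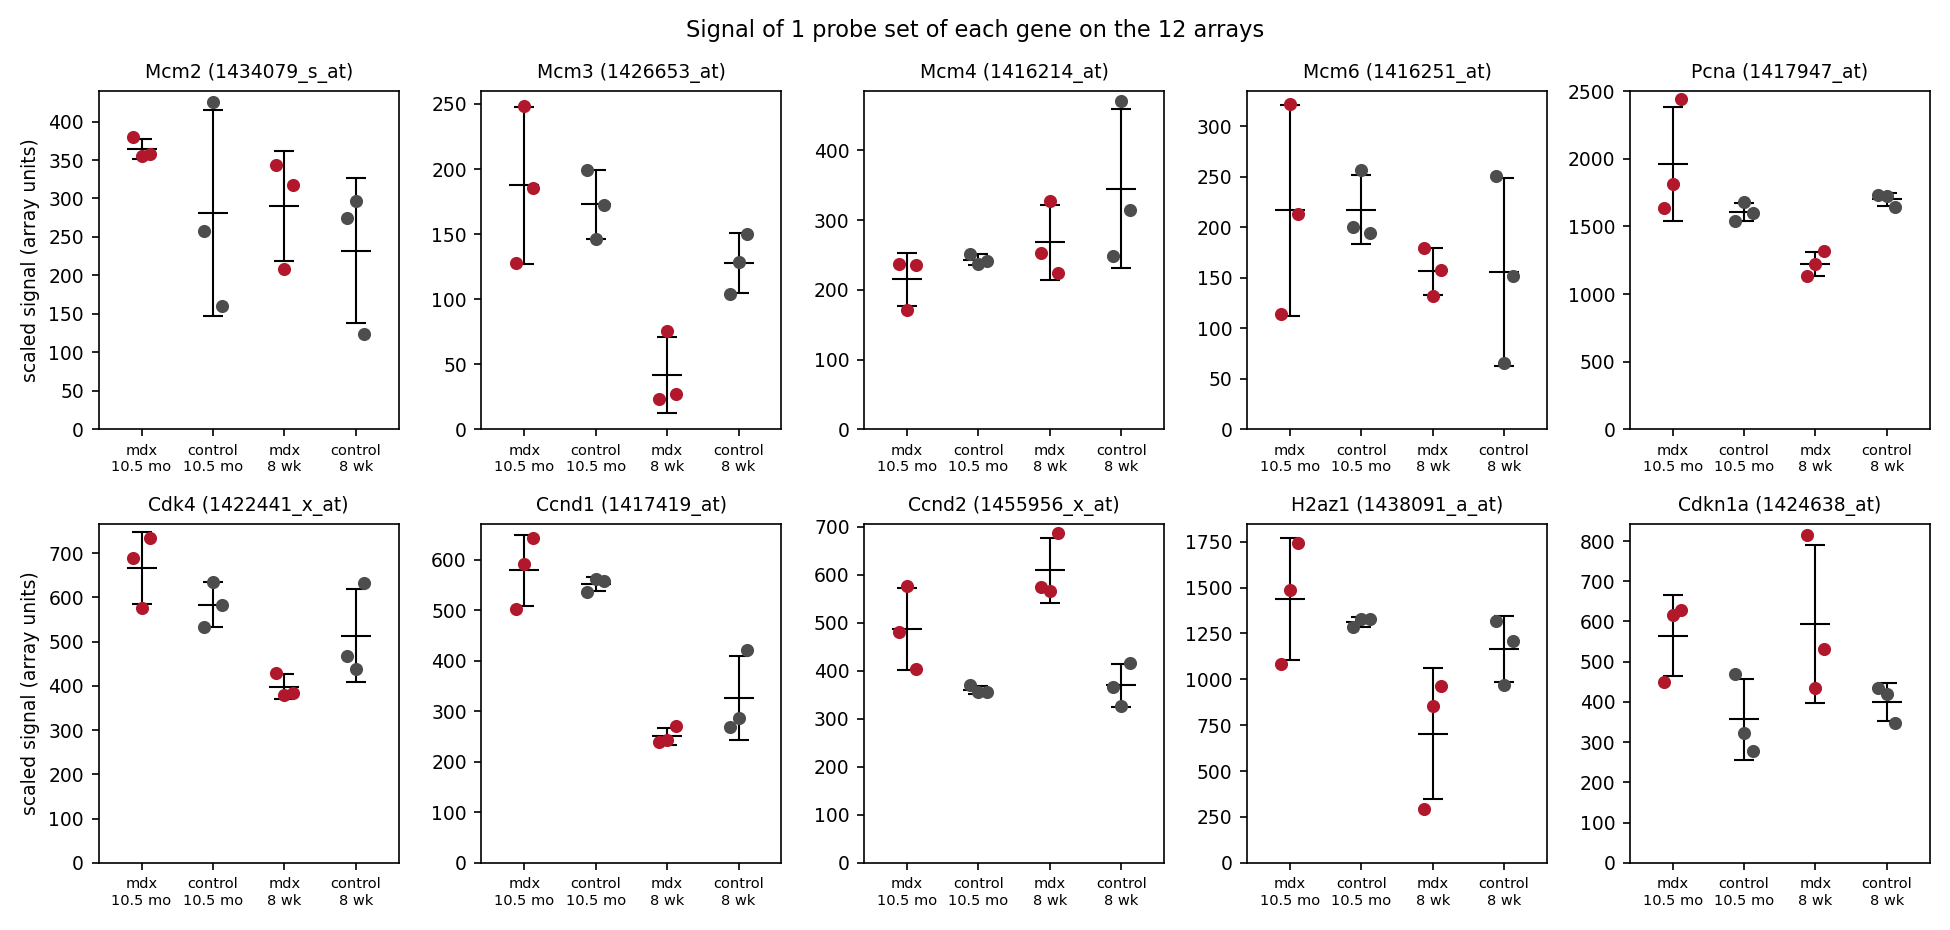
Scaled signal (array units, y axis from 0) of 1 probe set of each of the 10 genes on the 12 arrays, 1 point an array, with mdx in red, control in grey and lines at the mean ± SD of the 3 arrays. The groups run left to right as mdx 10.5 months, control 10.5 months, mdx 8 weeks and control 8 weeks. The 3 mdx arrays at 8 weeks lie below all control arrays of that age for Mcm3, Pcna, Cdk4 and H2az1 (10.1% of all probe sets do) and above them for Ccnd2 and Cdkn1a (9.51% of all). For Cdkn1a the lowest mdx and highest control arrays nearly meet, at 435.4 and 435.3. The other tested probe sets of Mcm3, Cdk4, H2az1 and Ccnd2, not shown, overlapped between mdx and control hearts at 8 weeks.

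Mcm3 encodes 1 of the 6 subunits of the MCM ring. Its probe set 1426653_at had signals of 128, 249 and 186 in mdx hearts and of 199, 147 and 172 in control hearts at 10.5 months. It had 23.2, 75.7 and 26.8 in mdx hearts and 104, 128 and 150.4 in control hearts at 8 weeks. The groups overlapped at 10.5 months, whereas all mdx arrays were below all control arrays at 8 weeks, and 2 of them were below the value of 32 that was added before taking logs. The mdx mean at 8 weeks was 41.9 ± 29.3, against 128 ± 23.2 in control hearts (SD, n = 3 each). On the log2(signal + 32) scale, which understates the change of such low signals, Mcm3 fell by 1.17 ± 0.26 (SE), or to 0.444-fold, in mdx hearts at 8 weeks (adjusted p = 0.0392, limma). At 10.5 months it differed by 0.07 ± 0.26 (adjusted p = 0.967, 95% interval -0.49 to 0.63).

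The call at 8 weeks held when 3 of the 12 arrays were left out in turn and was lost for the other 9. Values then lay between -1.48 and -0.99, with an adjusted p of up to 0.132. The call was also lost with no filter (adjusted p = 0.0517, limma). Without the 4 arrays of wide range it was -1.42 (adjusted p = 0.0701). Mcm3 has a second tested probe set, 1420028_s_at, which read 107, 124 and 208 in mdx hearts and 177, 155 and 127 in control hearts at 8 weeks. Those groups overlapped, and the difference was -0.09 (adjusted p = 0.87), so the 2 probe sets of the gene disagree. The mean over both was -0.63 (adjusted p = 0.0646). The remaining probe sets of Mcm3, 1420029_at, 1426652_at and 1449705_x_at, averaged 79.5, 30.8 and 94.0 over the 12 arrays and were not tested.

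Mcm2, another ring subunit, had signals of 379.9, 356 and 358 in mdx hearts and of 258, 425 and 159.8 in control hearts at 10.5 months with probe set 1434079_s_at. The corresponding signals at 8 weeks were 344, 209 and 318 in mdx hearts and 275, 297 and 124 in control hearts. Both pairs of groups overlapped, with the control arrays spread over a wider range than the mdx arrays. The differences were 0.43 ± 0.32 at 10.5 months (adjusted p = 0.802) and 0.33 ± 0.32 at 8 weeks (adjusted p = 0.626). Its probe set 1448777_at gave the opposite sign, with -0.19 at 10.5 months and -0.59 at 8 weeks (adjusted p = 0.225), and read 55.8, 149.8 and 125 in mdx hearts and 180.0, 131 and 216 in control hearts at 8 weeks.

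Mcm4 (1416214_at) had signals of 237, 171 and 236 in mdx hearts and of 252, 237 and 241 in control hearts at 10.5 months. The values at 8 weeks were 252, 327 and 224 in mdx hearts and 249, 471 and 315 in control hearts. The groups overlapped at both ages, with mean differences of -0.17 ± 0.21 and -0.30 ± 0.21 (adjusted p = 0.888 at 10.5 months and 0.489 at 8 weeks). Mcm6 (1416251_at) read 114, 322 and 213 in mdx hearts against 200.5, 256 and 194 in control hearts at 10.5 months, and 179, 132 and 158 in mdx hearts against 251, 65.4 and 151 in control hearts at 8 weeks. Its arrays spread widely within the groups, and the differences of -0.09 ± 0.35 and 0.13 ± 0.35 were smaller than their errors. Thus the lower signal at 8 weeks was called for 1 of the 6 tested probe sets of the 4 Mcm genes, and the others ran from -0.59 to 0.33.

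Pcna, the clamp that holds DNA polymerase on its template, had signals of 1639.8, 1810.3 and 2439.8 in mdx hearts and of 1541, 1678 and 1599.8 in control hearts at 10.5 months with its single probe set, 1417947_at. At 8 weeks it had 1136, 1219.7 and 1315 in mdx hearts and 1733, 1727 and 1646 in control hearts. All 3 mdx arrays were below all 3 control arrays at 8 weeks, and the groups overlapped at 10.5 months, where the highest array was replicate 3 of mdx, of wide range. The difference at 8 weeks was -0.47 ± 0.16 (unadjusted p = 0.0102, adjusted p = 0.141, limma), with a 95% interval of -0.81 to -0.13. That at 10.5 months was 0.26 ± 0.16 (adjusted p = 0.739). Neither was called.

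Cdk4, the kinase that cyclins of the D type activate, was measured by 3 probe sets. Probe set 1422441_x_at read 689, 577 and 734 in mdx hearts and 533, 635 and 583 in control hearts at 10.5 months. The same probe set read 430.0, 380.5 and 384 in mdx hearts and 469, 437 and 633 in control hearts at 8 weeks. The mdx arrays were all lower at 8 weeks and overlapped the control arrays at 10.5 months. The differences over the 3 probe sets ran from -0.34 to -0.17 at 8 weeks (adjusted p = 0.318 to 0.62) and from -0.02 to 0.18 at 10.5 months (adjusted p = 0.846 to 0.988). Probe set 1422439_a_at had 447, 504 and 588 in mdx and 458, 455 and 542 in control hearts at 10.5 months, and 342, 365 and 425 in mdx and 446, 361 and 484 in control hearts at 8 weeks. For 1422440_at the signals were 416, 431 and 372 in mdx and 451, 394 and 389 in control hearts at 10.5 months, and 272, 283 and 248 in mdx and 319, 251 and 512 in control hearts at 8 weeks. Both of these probe sets overlapped between mdx and control at each age.

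Ccnd1 encodes cyclin D1. Its probe set 1417419_at had signals of 503, 592 and 643 in mdx hearts and of 537, 562 and 558 in control hearts at 10.5 months. The signals at 8 weeks were 239, 243 and 269.9 in mdx hearts and 269, 287 and 422 in control hearts. Age separated these arrays in both genotypes, whereas mdx and control arrays overlapped at each age. The difference between mdx and control hearts was 0.06 ± 0.17 at 10.5 months (adjusted p = 0.958) and -0.32 ± 0.17 at 8 weeks (adjusted p = 0.348). The other probe sets gave the same order of ages: 1417420_at read 1242, 1439 and 1512 in mdx and 1427, 1551 and 1209.7 in control hearts at 10.5 months, and 905, 974 and 999.8 in mdx and 816, 1129 and 1063 in control hearts at 8 weeks. Probe set 1448698_at read 1998, 1998 and 1775 in mdx and 1858, 2139 and 1984 in control hearts at 10.5 months, and 1722, 1324 and 1477 in mdx and 1639.6, 1676 and 1775 in control hearts at 8 weeks.

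Ccnd2 encodes cyclin D2. Its probe set 1455956_x_at had signals of 479.9, 577 and 405 in mdx hearts and of 370.3, 356 and 356 in control hearts at 10.5 months. At 8 weeks it had 574, 567 and 688 in mdx hearts and 366, 327 and 417 in control hearts. Every mdx array was above every control array at both ages. It rose by 0.68 ± 0.16, or 1.60-fold, in mdx hearts at 8 weeks (adjusted p = 0.0467, limma, 95% interval 0.34 to 1.02), and differed by 0.39 ± 0.16 at 10.5 months (unadjusted p = 0.0278, adjusted p = 0.666). The call at 8 weeks held without 1 of the 12 arrays and was lost without any of the other 11, with values from 0.59 to 0.76 and an adjusted p of up to 0.123, and it was 0.77 (adjusted p = 0.0652) without the arrays of wide range.

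The 5 tested probe sets of Ccnd2 did not move together at 8 weeks, where their differences ran from -0.27 to 0.68 and their mean over the gene was 0.12 (adjusted p = 0.749). At 10.5 months all 5 were higher in mdx hearts by 0.11 to 0.39, with none called. Probe set 1448229_s_at read 454, 475 and 339 in mdx and 319, 381 and 273 in control hearts at 10.5 months, and 304, 296 and 800.0 in mdx and 366, 264 and 344 in control hearts at 8 weeks. One mdx array at 8 weeks, replicate 3, was far above the rest there. Probe set 1416122_at read 2172, 2404 and 1829.7 in mdx and 1916, 1963 and 1931 in control hearts at 10.5 months, and 1683, 1474 and 2030.1 in mdx and 2081, 1984 and 2169 in control hearts at 8 weeks. Its groups overlapped at each age, as did those of the remaining pair. Probe set 1430127_a_at had 1347, 1521 and 1092 in mdx and 1160.5, 1185 and 1081 in control hearts at 10.5 months, and 883, 797 and 1393 in mdx and 1101, 949.9 and 1205 in control hearts at 8 weeks. The signals of 1434745_at were 1991, 1955 and 1532 in mdx and 1652, 1764 and 1632 in control hearts at 10.5 months, and 1581, 1555 and 1628 in mdx and 1743, 1642 and 1535 in control hearts at 8 weeks.

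H2az1 encodes the histone variant H2A.Z, which replaces H2A in nucleosomes near transcription starts and, unlike the replication histones, is made outside S phase too. Its probe set 1438091_a_at had signals of 1085, 1489 and 1746 in mdx hearts and of 1283, 1329 and 1331 in control hearts at 10.5 months. The signals at 8 weeks were 295, 856 and 962 in mdx hearts and 1318, 970.2 and 1210.3 in control hearts. All mdx arrays were below all control arrays at 8 weeks, and replicate 1 of mdx, of wide range, was far below the rest. The difference at 8 weeks was -0.85 ± 0.33 (unadjusted p = 0.0236, adjusted p = 0.202) and moved to -0.34 without that array. The same array had the highest ratio of 3′ to 5′ Gapdh signal, 0.973 against at most 0.845 elsewhere, and the part of this in the result was not tested. At 10.5 months it was 0.10 ± 0.33 (adjusted p = 0.962). The other probe set, 1438092_x_at, read 299, 378 and 669.8 in mdx and 466, 476 and 353 in control hearts at 10.5 months, and 312, 324 and 491 in mdx and 461, 309.6 and 303 in control hearts at 8 weeks, where it differed by 0.06 (adjusted p = 0.934).

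Cdkn1a, the inhibitor p21, had signals of 448, 617 and 628 in mdx hearts and of 469, 322 and 278 in control hearts at 10.5 months with probe set 1424638_at. At 8 weeks it had 814, 435 and 531 in mdx hearts and 435, 420.0 and 346 in control hearts. The mdx arrays were above the control arrays at 8 weeks, with the lowest mdx array and the highest control array nearly equal, and 1 mdx array lay within the control range at 10.5 months. The differences were 0.63 ± 0.24 at 10.5 months (1.55-fold, unadjusted p = 0.0187, adjusted p = 0.645) and 0.49 ± 0.24 at 8 weeks (1.41-fold, adjusted p = 0.297), and neither was called. Averaged over both ages the difference was 0.56 ± 0.17 (unadjusted p = 0.00492, adjusted p = 0.176). The second probe set of the gene, 1421679_a_at, was below 32 on all 12 arrays and was not tested.

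**Figure D2:**
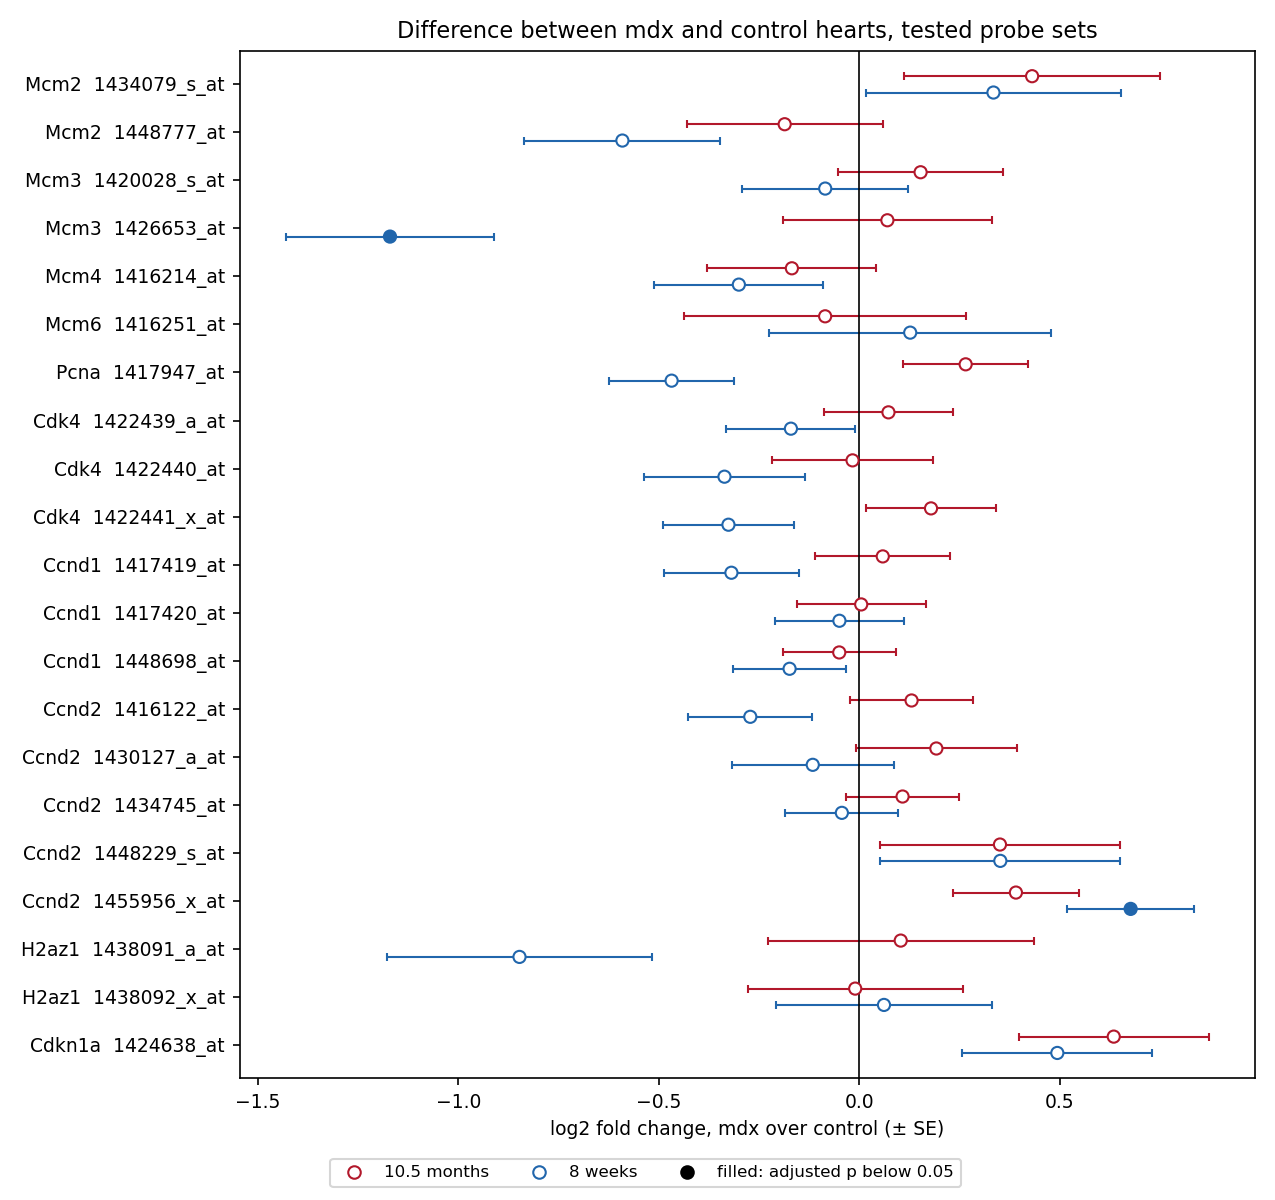
Log2 fold change of mdx over control (x axis, points with bars of ± 1 SE from limma) of the 21 tested probe sets, with 10.5 months in red above 8 weeks in blue and filled points for an adjusted p below 0.05. The filled points are Mcm3 1426653_at at -1.17 and Ccnd2 1455956_x_at at 0.68, both at 8 weeks, and no point at 10.5 months is filled.

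Across the 21 tested probe sets, none was called between mdx and control hearts at 10.5 months, where 0.0469% of all 14932 probe sets were called. At an unadjusted p below 0.05 the count was 2 of 21, against 7.37% of all. The median of the 21 was 0.10 and that of all was -0.03, and 15 were higher and 6 lower in mdx hearts. At 8 weeks, 1 was called higher, against 1.39% of all, and 1 lower, against 0.911% of all, which makes 2.3% of all in either direction. Here the median was -0.17 against -0.01 for all, with 6 higher and 15 lower. Those with an unadjusted p below 0.05 numbered 5 of 21, against 17.8% of all.

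Separation of mdx from control arrays without overlap was counted among the 21 tested probe sets, several of which share a gene. The counts are too small to compare the ages with each other. At 10.5 months 1 of 21 probe sets was higher on every mdx array (7.51% of all probe sets) and 0 were lower on every mdx array (10.6% of all). At 8 weeks 2 were higher on every mdx array (9.51% of all) and 4 were lower (10.1% of all). The 4 belonged to Mcm3, Pcna, Cdk4 and H2az1, and the 2 to Ccnd2 and Cdkn1a. With 3 arrays against 3, an exact permutation test of a single probe set cannot give a two-sided p below 0.1.

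Markers of cells that can divide in the heart differed between the same groups in part. The summed signal of 8 fibroblast markers, all of which passed the filter, was 21411 to 28773 in mdx and 19699 to 20437 in control hearts at 10.5 months, and 21731 to 24387 in mdx and 16817 to 19675 in control hearts at 8 weeks. These sums, in which bright genes weigh most, did not overlap between mdx and control at either age. Of all single probe sets, 7.51% were higher on every mdx array at 10.5 months and 9.51% at 8 weeks. The median difference of the 8 markers was 0.21 at each age, and none was called between mdx and control. The 9 macrophage and monocyte markers, all of which passed, summed to 11669 to 19195 in mdx and 9715.6 to 13409 in control hearts at 10.5 months, and to 13054 to 14066 in mdx and 11065 to 13205 in control hearts at 8 weeks. The 7 endothelial markers, all of which passed, summed to 5634.9 to 6937.8 in mdx and 6312.8 to 6963.7 in control hearts at 10.5 months, and to 6582.3 to 8213.1 in mdx and 7331.5 to 8472.9 in control hearts at 8 weeks. Both of these overlapped between mdx and control at each age. Of the fibroblast, macrophage and endothelial markers only Lum and Dpt were called in any comparison: both rose with age in mdx hearts, Lum by 1.17 (adjusted p = 0.00432, limma) and Dpt by 1.05 (adjusted p = 0.00425). Without the arrays of wide range they were at 0.96 (adjusted p = 0.0895) and 0.92 (adjusted p = 0.0626).

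The 4 atrial myocyte markers, all tested, summed to 11587 to 18087 in mdx and 4925.5 to 22195 in control hearts at 10.5 months, and to 11848 to 12577 in mdx and 4192.8 to 6291.5 in control hearts at 8 weeks, where the sums did not overlap. Most of each sum is Nppa, with means at 10.5 months of 14630 in mdx and 9267 in control hearts. The members disagreed at that age: 3 of 4 were lower in mdx hearts (median -1.86, none called). At 8 weeks all 4 were higher (median 1.07, none called). The 2 of 6 erythroid markers that were tested, Alas2 and Slc4a1, summed to 644.24 to 944.26 in mdx and 1029.2 to 4179.7 in control hearts at 8 weeks, again without overlap. Smooth muscle markers, 5 of 6 tested, summed to 14602 to 15617 in mdx and 12366 to 13787 in control hearts at 10.5 months, and overlapped at 8 weeks. Of them Acta2, smooth muscle actin, fell by 0.80 in mdx hearts at 8 weeks (adjusted p = 0.0184; -0.78, adjusted p = 0.0508, without the arrays of wide range) and differed by 0.64 at 10.5 months (adjusted p = 0.287). The difference between the ages in its mdx effect was called at 1.44 (adjusted p = 0.0196; 1.47, adjusted p = 0.0337, without those arrays), and with age in control hearts it fell by 1.16 (adjusted p = 0.00505; -1.08, adjusted p = 0.047, without them). The 9 cardiac myocyte markers were all higher on average in mdx than in control hearts at 8 weeks (median 0.35, none called), and 7 of 9 were at 10.5 months (median 0.20, none called). Their sums overlapped at both ages. At 8 weeks they were 155320 to 485430 in mdx hearts, with 2 of the 3 arrays of wide range, and 167540 to 322160 in control hearts. With age all 9 were lower, by a median of -0.42 in mdx and -0.23 in control hearts, and Ryr2, the calcium release channel, was called, in mdx hearts (-0.92, adjusted p = 0.0178; -0.36, adjusted p = 0.369, without the arrays of wide range). The part of these cells in the values of Mcm3, Ccnd2 and the other genes was not tested.

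The difference between the ages in the effect of mdx was tested directly and was called for none of the 21, against 0.154% of all probe sets called (3 of 21 at an unadjusted p below 0.05, against 12.1% of all). It was highest for Mcm3 1426653_at, at 1.24 ± 0.37 (unadjusted p = 0.0049, adjusted p = 0.2), then for H2az1 1438091_a_at, at 0.95 ± 0.47 (adjusted p = 0.441), and Pcna, at 0.73 ± 0.22 (unadjusted p = 0.00551, adjusted p = 0.208). The median of the 21 was 0.24, with 17 above 0. Thus an effect of mdx at 8 weeks that differs from that at 10.5 months was not shown for any of these genes. The mean of both ages was called for none either, against 0.201% of all (4 of 21 at an unadjusted p below 0.05, against 13.6% of all), and Ccnd2 1455956_x_at was the nearest, at 0.53 ± 0.11 (adjusted p = 0.0894).

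Within mdx hearts, 5 of the 21 probe sets rose between 8 weeks and 10.5 months and none fell, against 5.45% of all probe sets called higher, 5.97% called lower and 11.4% in either direction. At an unadjusted p below 0.05 the count was 10 of 21, against 30.2% of all. This comparison uses the same mdx arrays at 8 weeks as the comparison with control hearts, so the low mdx signals of Mcm3 at that age enter both. Mcm3 1426653_at rose by 1.60 ± 0.26, with means of 187 ± 60.3 at 10.5 months and 41.9 ± 29.3 at 8 weeks (adjusted p = 0.00388, limma), and its size rests on 2 arrays of 8 weeks below the offset of 32. Ccnd1 1417419_at rose by 1.11 ± 0.17, with means of 579 ± 70.8 and 251 ± 16.9 (adjusted p = 0.00273). Both calls held without any 1 of the 12 arrays. Without the 4 arrays of wide range Mcm3 was at 1.85 (adjusted p = 0.0268) and Ccnd1 at 0.94 (adjusted p = 0.066).

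Pcna rose by 0.65 ± 0.16 in mdx hearts, with means of 1963 ± 421 at 10.5 months and 1223 ± 89.6 at 8 weeks (1.57-fold, adjusted p = 0.0208). Cdk4 1422441_x_at rose by 0.69 ± 0.16, with means of 666 ± 80.8 and 398 ± 27.7 (1.62-fold, adjusted p = 0.0189). H2az1 1438091_a_at rose by 1.13 ± 0.33, with means of 1439.8 ± 333 and 704 ± 358 (2.19-fold, adjusted p = 0.0444). These calls depended on single arrays, among them mdx replicate 3 of 10.5 months, which had the highest ratio of 3′ to 5′ actin signal (1.44 against at most 1.289 elsewhere; its part was not tested). Pcna lost its call without mdx replicate 1 of 8 weeks (0.60, adjusted p = 0.0547) or mdx replicates 2 or 3 of 10.5 months (0.70 and 0.49, adjusted p = 0.0527 and 0.0634), and Cdk4 without mdx replicate 3 of 10.5 months (0.62, adjusted p = 0.0627). H2az1 kept its call in 9 of 24 alternatives, 4 of them among the 12 that leave out an array, and was lost with an offset of 16 (adjusted p = 0.0511), no filter (0.0639), quantile normalization (0.0529), wide range as a block (0.0671) or its 2 probe sets averaged (0.66, adjusted p = 0.113). With 1 array left out it was lowest, at 0.62 (adjusted p = 0.0787), without mdx replicate 1 of 8 weeks. With only the mdx arrays in the fit, Pcna, Cdk4 and H2az1 all lost their calls (adjusted p = 0.0908, 0.0604 and 0.123, limma). Without the 4 arrays of wide range Pcna was at 0.38 (adjusted p = 0.178), Cdk4 at 0.67 (adjusted p = 0.11) and H2az1 at 0.39 (adjusted p = 0.267).

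The 3 probe sets of Cdk4 were all higher at 10.5 months than at 8 weeks in mdx hearts, by 0.41 to 0.69, as were those of Ccnd1, by 0.35 to 1.11, with no overlap of arrays. Probe sets of the same gene can read the same transcripts, so they were not taken as independent of each other. The second probe sets of Mcm3 and H2az1 differed by -0.32 and 0.19 (adjusted p = 0.318 and 0.673). In all, 10 of 21 probe sets were higher on every mdx array of 10.5 months than on every one of 8 weeks (14.7% of all probe sets) and 0 were lower on every array (15.5% of all). The median of the 21 was 0.35, against 0.00 for all probe sets.

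In control hearts, none of the 21 probe sets was called between 10.5 months and 8 weeks, against 0.147% of all (3 of 21 at an unadjusted p below 0.05, against 12.2% of all). Cyclin D1 was the nearest, with 0.73 ± 0.17 for 1417419_at (unadjusted p = 0.000775, adjusted p = 0.118), and its means were 552 ± 13.6 at 10.5 months and 326 ± 83.6 at 8 weeks. All 3 Ccnd1 probe sets were higher on each control array of 10.5 months than on each of 8 weeks (12.2% of all probe sets were), and Mcm3 1420028_s_at and Ccnd2 1416122_at were lower on each (10.5% of all). Pcna differed by -0.08 ± 0.16 (adjusted p = 0.876), Mcm3 1426653_at by 0.36 ± 0.26 (adjusted p = 0.618) and H2az1 1438091_a_at by 0.18 ± 0.33 (adjusted p = 0.872). That the change with age was called in mdx and not in control hearts does not show that it differs between them: the test of that difference is the same as that between the ages in the effect of mdx, and it called none.

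**Figure D3:**
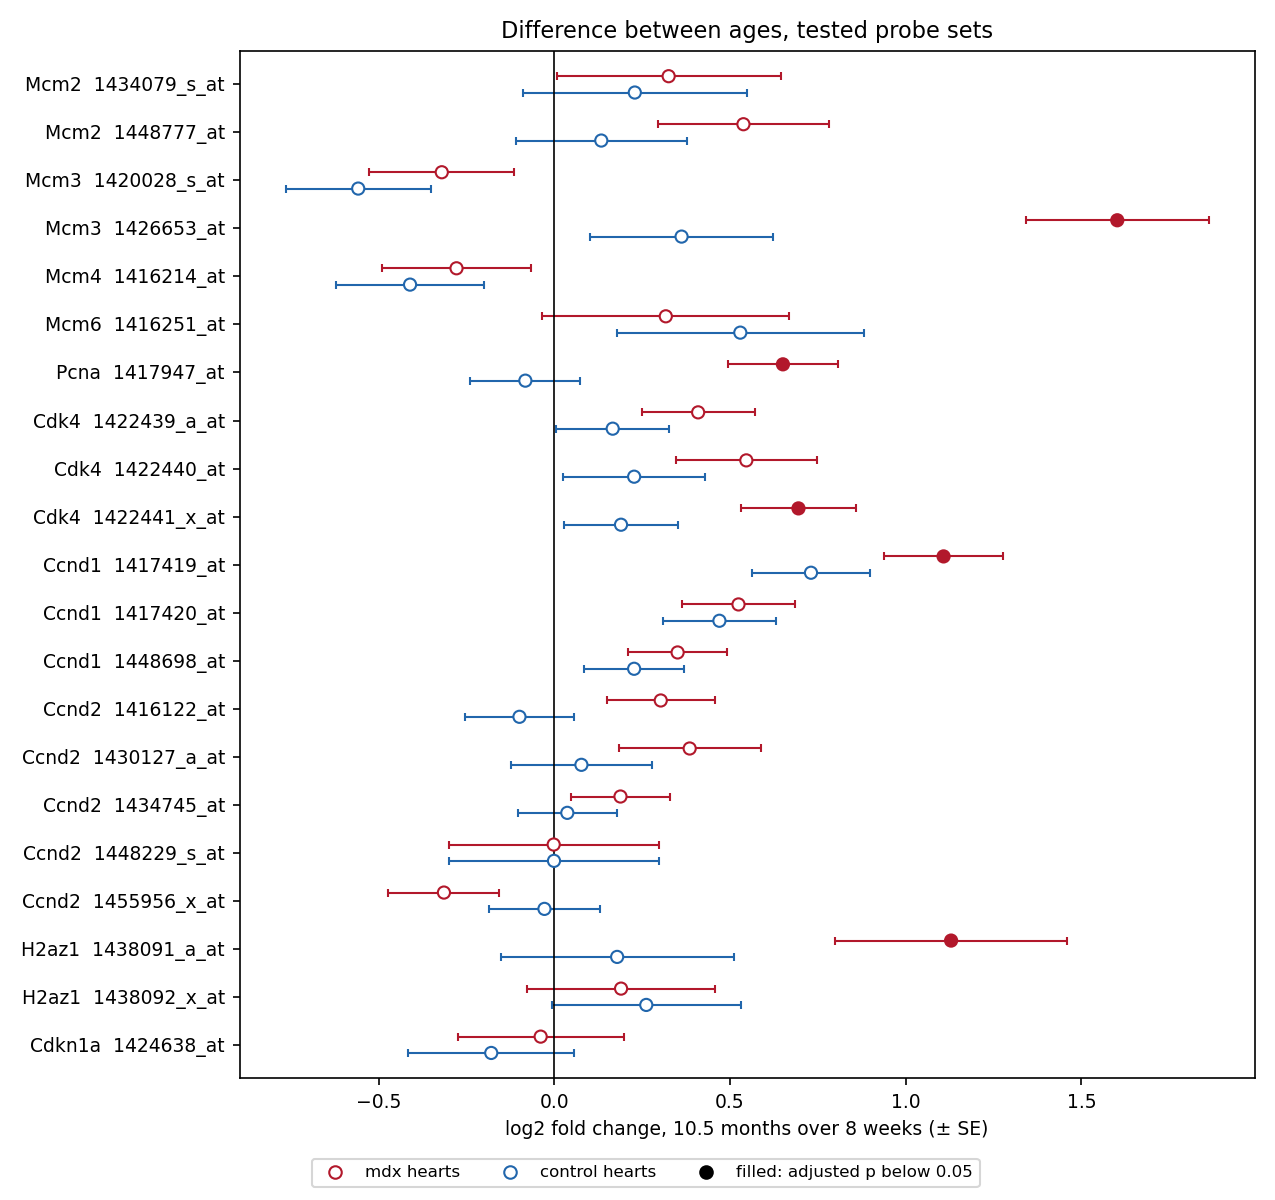
Log2 fold change of 10.5 months over 8 weeks (x axis, points with bars of ± 1 SE from limma) of the 21 tested probe sets, with mdx hearts in red above control hearts in blue and filled points for an adjusted p below 0.05. Mcm3 1426653_at, Pcna, Cdk4 1422441_x_at, Ccnd1 1417419_at and H2az1 1438091_a_at are filled in mdx hearts, between 0.65 and 1.60, and no control point is.

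Other genes of the same processes were taken as 8 lists, each gene by its brightest probe set, with 89 distinct genes tested. Between mdx and control hearts at 10.5 months none was called, against 0.0678% of the 8852 genes tested. Their median was 0.00, against -0.02 for all genes. List medians there were 0.22 for the CDK inhibitors (3 of 4 higher in mdx hearts), 0.20 for origin licensing and the helicase (10 of 11 higher), 0.08 for G2 and mitosis (10 of 14 higher), -0.01 for the replication fork (10 of 20 higher), -0.02 for histone variants (4 of 6 lower), -0.06 for G1 cyclins, kinases, RB and E2F (10 of 14 lower), -0.08 for the p53 genes (9 of 15 lower) and -0.10 for deoxynucleotide supply (5 of 6 lower). The genes nearest to a call in each list were Cenpa, the histone H3 variant of centromeres, in both of its lists, at 0.46 (adjusted p = 0.61), and Cdk2, the kinase that starts S phase, at -0.51 ± 0.17 (adjusted p = 0.609). In the other lists they were the origin recognition subunit Orc6 at 0.30 (adjusted p = 0.709), the polymerase delta subunit Pold2 at 0.39 (adjusted p = 0.666), the nucleotide pyrophosphatase Dctpp1 at 0.30 (adjusted p = 0.74), the inhibitor Cdkn2c (p18) at 0.37 (adjusted p = 0.674) and the p53 target Phlda3 at 0.42 (adjusted p = 0.666).

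At 8 weeks 1 of the 89 was called, against 2.15% of genes. Pold3 (1426838_at), a subunit of DNA polymerase delta, which works on the Pcna clamp, had signals of 343, 361 and 368 in mdx hearts and of 193, 232 and 131 in control hearts. All mdx arrays were above all control arrays, and it rose by 0.87 ± 0.18 (adjusted p = 0.0309, limma; 1.06, adjusted p = 0.0663, without the arrays of wide range), whereas Pcna itself differed by -0.47. At 10.5 months Pold3 read 245, 286 and 269 in mdx hearts and 270, 211 and 206 in control hearts, which overlapped (0.20, adjusted p = 0.844). In the same list Pole4, a subunit of DNA polymerase epsilon, was at -0.58 ± 0.16 (adjusted p = 0.0883), and Fen1, the nuclease that trims Okazaki fragments, at 2.38 ± 0.72 (adjusted p = 0.108), neither of them called. In the other lists the nearest to a call were the p53 target Trp53inp1 at -0.57 ± 0.17 (adjusted p = 0.103), the origin recognition subunit Orc5 at -0.51 (adjusted p = 0.224), the deoxynucleotide triphosphatase Samhd1 at 0.57 (adjusted p = 0.21), the mitotic transcription factor Foxm1 at -0.65 (adjusted p = 0.283) and the histone variant Macroh2a2 at 0.54 (adjusted p = 0.261). The CDK inhibitor Cdkn1c (p57) was at -1.02 ± 0.33 (adjusted p = 0.135) and the repressor E2f4 at 0.50 ± 0.16 (adjusted p = 0.121). Medians of the 8 lists lay between -0.12 for the p53 genes and 0.04 for the CDK inhibitors, against -0.01 for all genes.

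With age in mdx hearts, 5 of the 89 rose and 3 fell, against 11.3% of genes called. Gmnn, the geminin that keeps origins from being licensed again, rose by 0.82 ± 0.22, with means of 1099 ± 79.8 at 10.5 months and 633 ± 210.4 at 8 weeks (adjusted p = 0.0305). Cdk7, the kinase that activates other cyclin-dependent kinases, rose by 0.71 ± 0.19 (adjusted p = 0.0291), the p53 target Trp53inp1 by 0.66 ± 0.17 (adjusted p = 0.0271), Pole4 by 0.57 ± 0.16 (adjusted p = 0.0428) and Cenpa by 0.53 ± 0.16 (adjusted p = 0.0462). Those that fell were Chaf1b, a chromatin assembly factor of the fork (-0.82 ± 0.23, adjusted p = 0.0366), E2f4 (-0.54 ± 0.16, adjusted p = 0.0418) and the p53 target Sesn1 (-0.47 ± 0.13, adjusted p = 0.0386). Without the arrays of wide range none of these 8 was called: Gmnn was at 0.48, Cdk7 at 0.51, Trp53inp1 at 0.48, Pole4 at 0.55, Cenpa at 0.64, Chaf1b at -1.19, E2f4 at -0.68 and Sesn1 at -0.42, with adjusted p = 0.09 to 0.166. In control hearts none of the 89 was called between the ages, against 0.158% of genes, and the test of the difference between the ages in the effect of mdx called none.

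**Figure D4:**
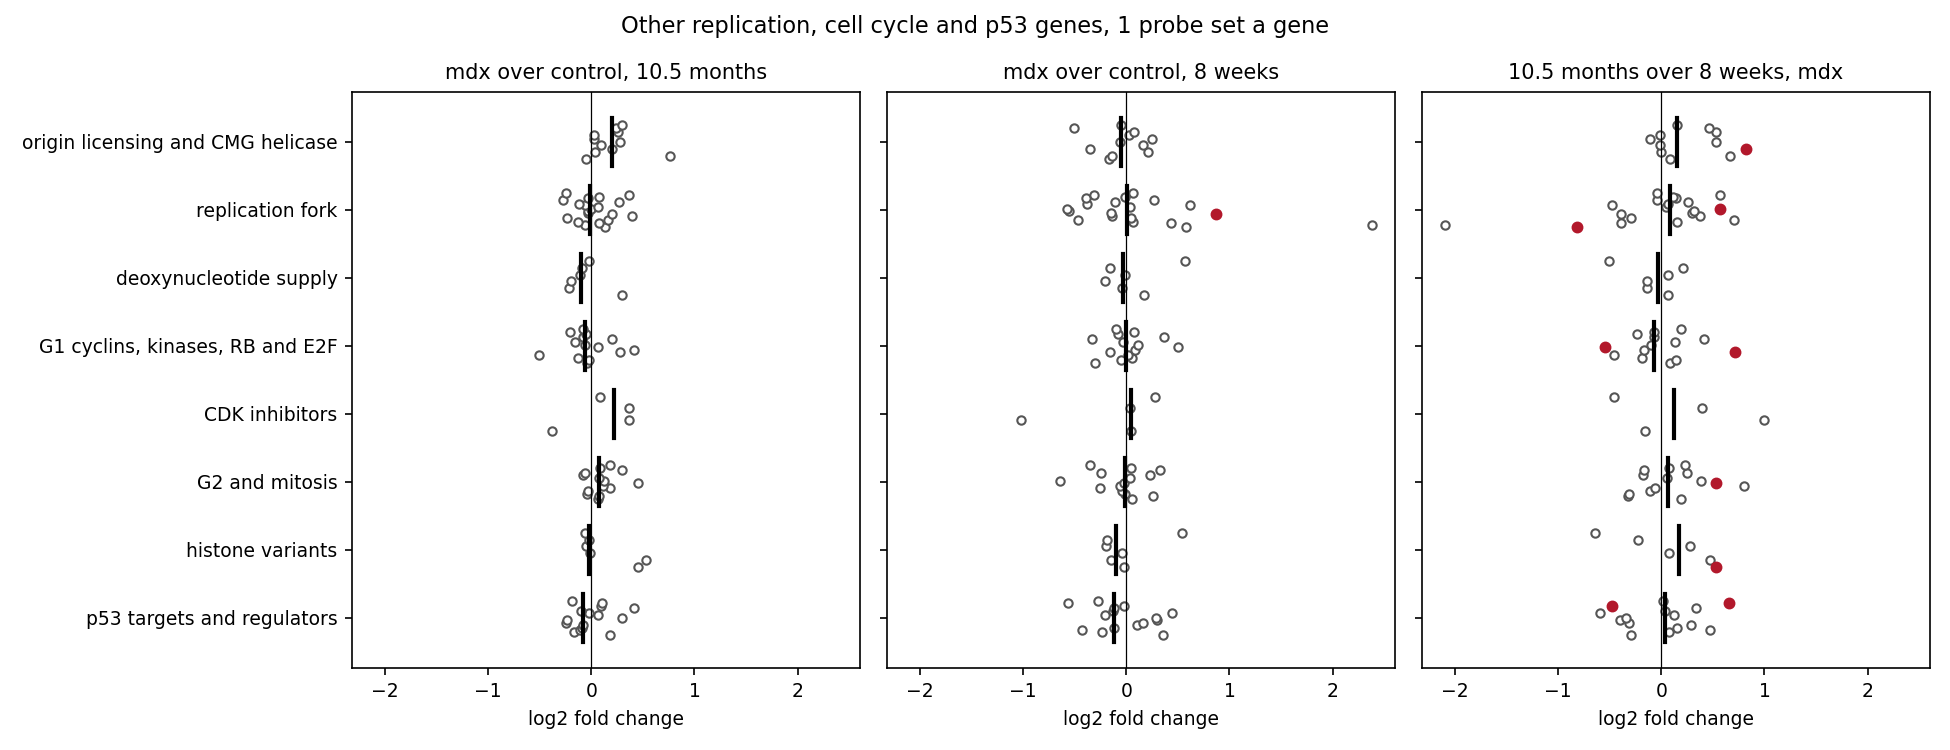
Log2 fold change (x axis) of the other genes of 8 lists (rows), 1 point a gene, with list medians as black bars and genes with an adjusted p below 0.05 in red. The panels show mdx over control at 10.5 months, mdx over control at 8 weeks and 10.5 months over 8 weeks in mdx hearts. The first panel has no red point, the second has Pold3 at 0.87, and the third has points on both sides of 0.

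The genes of 1 annotation whose log2 signal over the 12 arrays was most like that of a called probe set were named as a description. They were Dad1, Anxa2 and Lman1 for Mcm3 (Pearson's r = 0.9635, 0.9558 and 0.9452), and Rras, Bcap29 and Ginm1 for Ccnd1 (r = 0.9789, 0.9646 and 0.9603). For Pcna they were Tefm, Znhit1 and Pih1d1 (r = 0.9656, 0.9592 and 0.9495), and for H2az1 Adprhl2, Akr1a1 and Nans (r = 0.9738, 0.959 and 0.9575). Trappc6a, Gas1 and Clec3b were most like Cdk4 (r = 0.9314, 0.9307 and 0.9305), and Uri1, Col5a2 and Wdr75 most like Ccnd2 (r = 0.8949, 0.8834 and 0.8771). None of the 18 is a member of the lists of replication and cell cycle genes, and the points share group and array, so the values hold group differences as well as array effects.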

How the data were processed

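Total RNA of 12 mouse heart samples was hybridised to Affymetrix arrays by a standard protocol, per the labels. The deposited values are linear signal intensities, 1 per probe set and array, without the software or probe-level steps being given in the sources used here. Their trimmed means (2% off each end) were 1500.58 to 1500.91, so they were already scaled by the authors. No 2 arrays held identical values, and array number limits the precision.

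Signals were multiplied so that each array's trimmed mean became 500, 32 was added and log2 taken, and 64 control probe sets and those with a mean below 100 were left out. Genes came from GEO's platform annotation (1 gene for 20393 probe sets, several for 691, none for 1606), with 20364 symbols updated through RefSeq gene IDs. R 4.3.3 and limma 3.58.1 fitted a mean per group over all 12 arrays (8 residual and 5.2 prior degrees of freedom), tested 6 comparisons and adjusted each over 14932 probe sets by Benjamini-Hochberg. On simulated data for mdx against control at 8 weeks (14932 probe sets), 57% of 1-log2 and 97% of 2-log2 changes were recovered, with 7 false calls.

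All 29 probe sets of the 10 genes are accounted for, and full statistics are given for 1 probe set of each gene, one called in any comparison or else the brightest. The genes, lists and tests were chosen with earlier results of these data known. From each list, the genes called in the mdx comparisons or with age in mdx hearts are named, otherwise the 1 nearest to a call between mdx and control at each age. Fen1 and Pole4 at 8 weeks were added after their values were seen. Replicate numbers are not said to pair the arrays in the sources used here, and were not used as pairs in the main fit. Of 18 same-numbered pairs 2 had correlated deviations over 0.1 (range -0.129 to 0.135). Both were mdx with control at 8 weeks (replicates 2 and 3, 0.135 and 0.115). Arrays of unlike number were not compared, so these values cannot decide whether the arrays are paired. Alternatives changed the offset, floor, filter, normalization, prior, arrays fitted, block and probe set averaging.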

Additional observations from a re-analysis of the deposited data

How the results depend on the processing

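The count of member probe sets called stayed at 0 under every alternative run for mdx against control at 10.5 months, for the difference of the mdx effect between the ages and for age in control hearts. At 8 weeks the 2 calls became 1 with a floor of 64 or a mean signal of at least 200 (Ccnd2 1455956_x_at in both). Mcm3 1426653_at, which averaged 132 over all arrays, was tested with the floor of 64 but was left out by the filter of 200. With a replicate block the 2 calls also became 1 (Mcm3). Without the 4 arrays of wide range, an alternative added after seeing the data, neither call held, and mdx at 8 weeks kept replicate 3 alone. Another probe set, Ccnd2 1448229_s_at, was then at 1.11, against 0.35 over all arrays. Replicate 3 read 800.0 for it, against 304 and 296 on the other mdx arrays of 8 weeks. The 2 calls became 0 with no filter, with only the groups compared in the fit and when the probe sets of a gene were averaged, and 0 to 1 when single arrays were left out. The block on replicate number changed no other member count past 1.5 times. The mean of both ages gave 1 call with quantile normalization or with wide range as a block (Ccnd2 1455956_x_at in both), against 0. Without the wide arrays Ccnd2 1455956_x_at was at 0.64 and 1448229_s_at at 0.80, again with replicate 3 as the only mdx array of 8 weeks. Age in mdx hearts gave 2 calls with only the groups compared, 1 without the wide arrays and 2 to 6 when single arrays were left out, against 5. The cause of these changes was not tested.

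Over all probe sets, 343 calls at 8 weeks became 23 with only the groups compared, 176 with the replicate block, 193 with gene means and 42 to 308 when single arrays were left out. The 7 calls at 10.5 months became 11 with a trended robust prior, 3 with the block, 4 with gene means, 3 without the wide arrays and 1 to 12 with single arrays left out. For the mean of both ages 30 became 46 with the trended prior, 127 without the wide arrays and 12 to 60 with arrays left out. The difference between the ages had 23, against 15 with an offset of 64, 3 with the higher filter, 10 with the block, 110 without the wide arrays and 0 to 31 with arrays left out, and the share of higher calls in it was 34.8%, against 48.3% with quantile normalization. Age in control hearts had 22, against 47 with an offset of 64, 41 with the higher filter, 59 with the trended prior, 7 with only the groups compared, 12 without the wide arrays and 7 to 35 with arrays left out. Age in mdx hearts had 1706, against 565 with only the groups compared, 727 without the wide arrays and 598 to 1883 with arrays left out.

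Values of single genes were recomputed for 1 probe set of each gene in 4 comparisons, without the mean of both ages and age in control hearts, and among these no value whose sign turned was called in either fit. With single arrays left out the ranges were -0.0069 to 0.53 for Mcm2 and -0.28 to 0.49 for Mcm6 at 8 weeks, and -0.13 to 0.28 for Mcm3, -0.39 to 0.25 for Mcm6, -0.017 to 0.15 for Ccnd1 and -0.046 to 0.29 for H2az1 at 10.5 months. For the difference between the ages they were -0.21 to 0.44 for Mcm2, -0.10 to 0.32 for Mcm4, -0.57 to 0.20 for Mcm6 and -0.047 to 0.38 for Cdkn1a, and for age in mdx hearts -0.23 to 0.20 for Cdkn1a. Without the wide arrays Mcm6 was at -0.26 at 8 weeks, Ccnd1 at -0.017 and H2az1 at -0.046 at 10.5 months, and Mcm2 at -0.23 and Mcm6 at 0.14 for the difference. With wide range as a block Mcm6 was at 0.042 at 10.5 months and Cdkn1a at 0.017 for age in mdx hearts. As gene means Mcm2 was at -0.13 at 8 weeks and Ccnd2 at 0.11 both for the difference and for age in mdx hearts. Limits on all these values are 3 arrays a group and signals near the offset for Mcm3 and for the 8 probe sets not tested.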
